A study of Mus musculus with 12 samples.

Results

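The 10 genes described here encode the cap-binding complex eIF4F and its inhibitors, the eIF4E-binding proteins (4E-BPs). They were chosen by symbol, as the cap-binding proteins Eif4e, Eif4e2 and Eif4e3, the scaffolds Eif4g1 and Eif4g3, the helicases Eif4a1 and Eif4a2, and the 4E-BP genes Eif4ebp1, Eif4ebp2 and Eif4ebp3. All 10 were among the 17007 genes in the deposited values and among the 14397 that passed the filter on low values, each with more than 0.5 FPKM in all 12 libraries, and the rule used symbols alone.

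RNA was sequenced from 12 livers or liver tumors in 4 groups of 3. The normal livers (NL) came from untreated wild-type C57BL/6 mice. The other 9 libraries came from c-MYC/MCL1/RictorKO Tsc2KO tumors, raised in mice floxed at both genes (Rictor fl/fl and Tsc2 fl/fl) by driving plasmids for c-MYC, MCL1 and Cre recombinase into hepatocytes through the tail vein. Per the labels, tumor-bearing mice received vehicle, MLN0128 (1 mg/kg per day) or everolimus (1 mg/kg per day) by gavage on 6 days a week for 3 weeks from day 6, and were killed 3.7 weeks after the injection. The results text of the study gives a course of days in place of weeks for the sequenced tumors, so the length of drug exposure behind every drug comparison here is uncertain. Everolimus, an analog of rapamycin, is directed at mTORC1, whereas MLN0128 blocks the catalytic site that the mTOR kinase uses in either complex. Every tumor, the vehicle controls included, carried both deletions and both oncogenes, so vehicle against normal liver compares tumor with liver and not a deletion with its control. Cre acted only in cells that took up plasmid, ages were not given in the labels, and mice of both sexes were used in the study.

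eIF4F assembles on the 5′ cap of an mRNA and recruits the small ribosomal subunit. eIF4E holds the cap, eIF4G bridges it to the ribosome and to the poly(A)-binding protein, and eIF4A unwinds structure in the leader. The 4E-BPs take the place of eIF4G on eIF4E until mTORC1 phosphorylates them, which makes this step one of the main outlets of mTORC1 and gives the ratio of 4E-BP to eIF4E its interest in studies of mTOR inhibitors. Only RNA was measured here, so neither protein nor phosphorylation enters the values.

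The values are the FPKM of the authors, that is fragments per kilobase of transcript scaled between libraries, so levels of different genes can be set side by side per length. Fold changes are differences of log2(FPKM + 1), which understates the change of low genes, and were tested with limma in 1 model over the 12 libraries. A gene was called at a Benjamini-Hochberg adjusted p under 0.05 over all 14397 genes. Where groups are said not to overlap, this is a description and is common among all genes. The compared groups did not overlap in 74.1% of all genes in vehicle against normal liver and 45.5% in MLN0128 against vehicle. The share was 32.4% in everolimus against vehicle and 27.7% between the drugs. Reads recovered from the FPKM numbered 17141807 to 25155457 per library (median 18644624). In the 2 lowest members they numbered 24 to 151 (Eif4ebp3) and 30 to 309 (Eif4e3), and the other 8 members held at least 477 reads in every library. The FPKM carried library scaling factors of 0.585 to 0.596 in NL and 1.10 to 1.37 in tumors. When plain library totals replaced them, the median log2 fold change of all genes in vehicle against normal liver moved from 0.06 to 0.62, and when the libraries were rescaled to equal FPKM sums it moved to 1.00. In MLN0128 against vehicle the same medians were -0.01, 0.10 and 0.19. MLN0128 replicates 1 and 2 held 191 and 155 FPKM of Xist RNA and the other 10 libraries at most 0.0699, so that any comparison of this group is also one of mice that differ in their X chromosomes. MLN0128 replicate 3 was therefore compared alone as well, as a lone sample whose spread had to be taken from the other groups, so that an adjusted p from that fit says nothing of the variation within the MLN0128 group.

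Promoter sequence of 250 bases before an annotated start was found for 7 of the 10 members, in 11 windows, in RefSeq on GRCm38.p6. No window was found for Eif4e3, Eif4ebp1 and Eif4ebp3, so no motif was searched in their promoters. The E-box CACGTG, a palindrome that reads the same on both strands and is the core site of MYC and related factors, stood in 1 window each of Eif4e, Eif4a1 and Eif4g1. Of all 32851 mouse windows of this length 6.02% held it, and 0.429% held at least 2 as the Eif4e window did. The sites are shown because c-MYC is an oncogene of these tumors. Eif4a1 and its paralog Eif4a2 differed in direction between tumor and liver, and were set side by side with those values known. As deposited, of the members without an E-box in a window, Eif4e2 and Eif4g3 were higher in vehicle tumors, Eif4a2 was lower and Eif4ebp2 was not called. Of those with the site, Eif4e and Eif4a1 were higher and Eif4g1 was not called. Under both other scalings Eif4g1 and Eif4ebp2 were called higher as well, and with equal FPKM sums Eif4a2 was not called. The part of the sites in these values was not tested. Capitals mark the E-box, all sequences read 5′ to 3′ on the strand of the gene, and bases in an annotated exon were left off, except around the Eif4e sites, which lie in the first exon of another Eif4e transcript and are shown as 30 bases each.
Eif4e, chr3:138527028-138527057, plus strand: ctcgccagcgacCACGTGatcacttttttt
Eif4e, chr3:138527192-138527221, plus strand: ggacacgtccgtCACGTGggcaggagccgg
Eif4a1, chr11:69672424-69672673, minus strand: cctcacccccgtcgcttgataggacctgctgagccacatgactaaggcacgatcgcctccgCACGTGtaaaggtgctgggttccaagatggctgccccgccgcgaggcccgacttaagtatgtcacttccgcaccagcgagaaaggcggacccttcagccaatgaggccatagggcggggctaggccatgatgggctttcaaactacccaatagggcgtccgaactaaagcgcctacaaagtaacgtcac
Eif4a2, chr16:23107218-23107443, plus strand: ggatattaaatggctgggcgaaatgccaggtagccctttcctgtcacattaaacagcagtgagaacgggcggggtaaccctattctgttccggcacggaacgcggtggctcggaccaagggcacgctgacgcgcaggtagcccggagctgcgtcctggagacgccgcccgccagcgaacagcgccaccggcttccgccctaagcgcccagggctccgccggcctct
Eif4g1, chr16:20672477-20672722, plus strand: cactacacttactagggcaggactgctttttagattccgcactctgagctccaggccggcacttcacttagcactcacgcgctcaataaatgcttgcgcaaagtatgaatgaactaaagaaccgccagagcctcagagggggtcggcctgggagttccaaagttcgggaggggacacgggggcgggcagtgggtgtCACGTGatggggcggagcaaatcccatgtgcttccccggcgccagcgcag
The Eif4e sites began 228 and 64 bases before the start, the Eif4a1 site 189 and the Eif4g1 site 54. The Eif4g1 site lies inside TCACGTGA, the core of the motif bound by TFEB and TFE3, which 0.785% of all windows held. The motif TGATGNAA, written for CCAAT enhancer-binding protein and ATF4 composite sites, was searched on both strands, occurred in 3.45% of all windows and was not matched in the windows of the 7 members. Eif4ebp1 and Eif4ebp3 were not among these 7. These are matches of letters and not measured binding.

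In vehicle-treated tumors, as deposited, 6 members were higher than in normal liver (Eif4e, Eif4e2, Eif4e3, Eif4g3, Eif4a1 and Eif4ebp1) and 2 were lower (Eif4a2 and Eif4ebp3). Of all genes tested 36% were called higher and 33% lower, and 69% in either direction, so 8 of 10 members lies close to the share of all genes. These counts depend on the scaling. With plain library totals and with equal FPKM sums, Eif4g1 and Eif4ebp2 were also called higher and Eif4ebp3 was not called. Eif4a2 stayed called lower with plain library totals only. With MLN0128 against vehicle, 4 members were lower (Eif4e, Eif4e3, Eif4ebp1 and Eif4ebp3) and 1 was higher (Eif4a2), where 17.1% of all genes were called lower and 14.9% higher. With everolimus against vehicle, 1 member was lower (Eif4e3), where 6.05% of all genes were called lower and 3.78% higher, and limma called 0 members higher, with 2 higher at an unadjusted p under 0.05 and 0 by treat or by voom on recovered reads. Between the drugs, 3 members were lower with MLN0128 than with everolimus (Eif4e, Eif4ebp1 and Eif4ebp3), where 5.54% of all genes were called lower and 3.99% higher, and limma called 0 higher, as did treat, voom and an unadjusted p under 0.05. The stricter treat test against a fold change of 1.5 kept Eif4g3, Eif4a2, Eif4ebp1 and Eif4ebp3 in tumor against liver and Eif4ebp3 in MLN0128 against vehicle, where it called 32.7% and 2.13% of all genes.

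**Figure D1:**
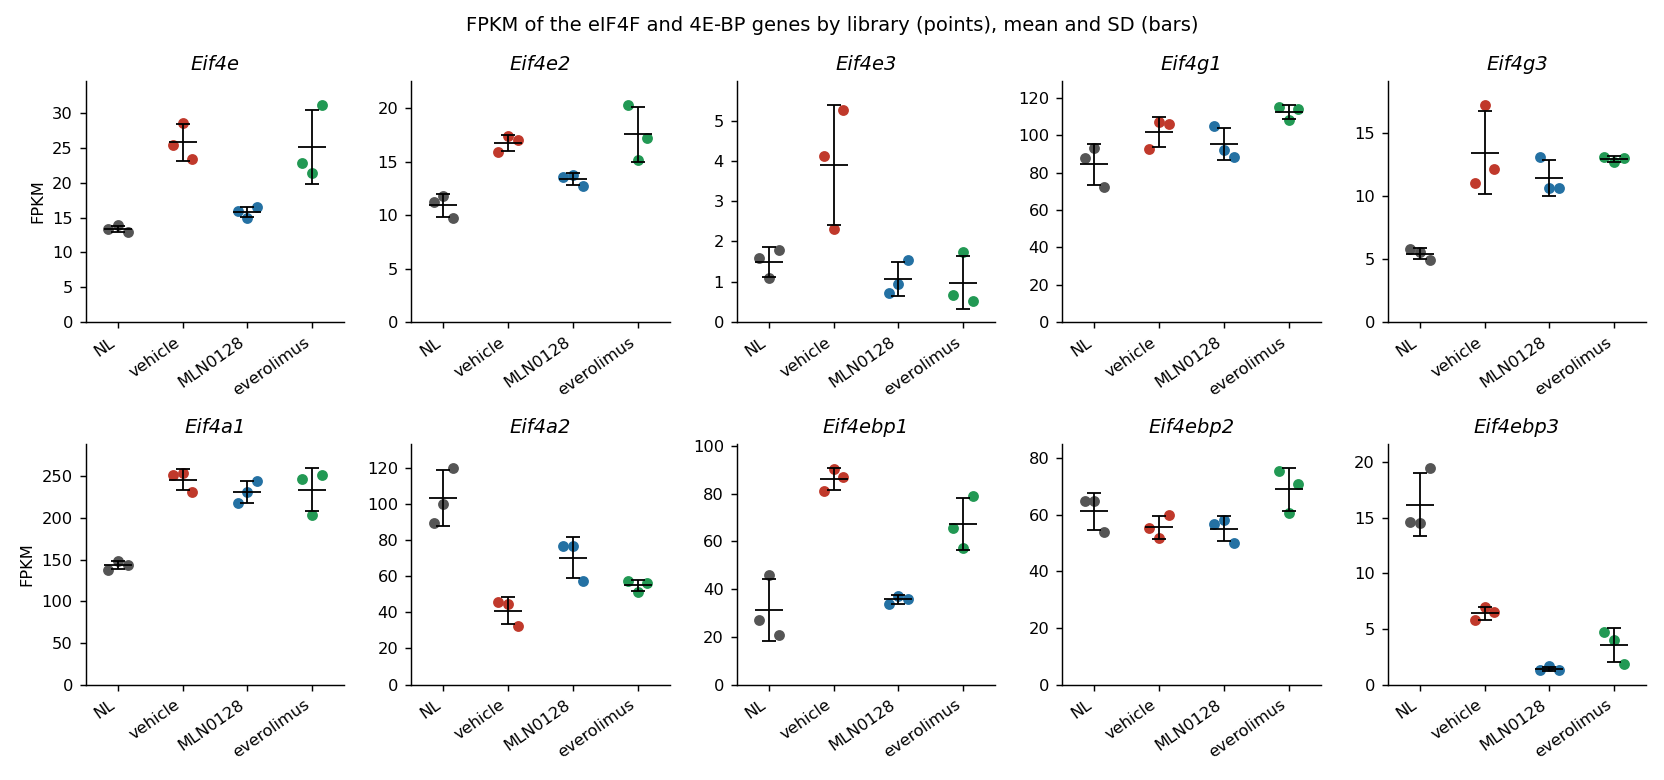
FPKM of the 10 members (vertical axes, linear from 0) in normal liver (NL), vehicle, MLN0128 and everolimus, with 1 point per library and bars for the mean and SD of 3. As deposited, Eif4e and Eif4ebp1 stand high in vehicle tumors (23.4 to 28.6 and 81.1 to 90.4 FPKM) and near the normal liver with MLN0128 (15 to 16.5 and 33.8 to 37.3). Eif4ebp3 is highest in normal liver (14.5 to 19.5) and lowest with MLN0128 (1.33 to 1.64). With plain library totals and with equal FPKM sums, Eif4e and Eif4ebp1 were called higher with MLN0128 than in normal liver.

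Eif4e (ENSMUSG00000028156.12, plus strand of chr3:138526179-138559696 on GRCm38) encodes the cap-binding subunit whose supply 4E-BPs limit. Its FPKM was 13.3, 13.9 and 13 in NL, 25.5, 28.6 and 23.4 in vehicle tumors, 15.9, 15 and 16.5 with MLN0128, and 22.9, 21.4 and 31.2 with everolimus. All vehicle libraries were above all normal livers and all MLN0128 libraries, while the everolimus libraries lay around the vehicle range, replicate 3 being the highest of the 12. Eif4e rose by 0.89 on the log2 scale in vehicle against normal liver (SE 0.136, limma adjusted p = 0.000106) and fell by 0.67 with MLN0128 (SE 0.136, adjusted p = 0.00358). With everolimus the difference from vehicle was -0.05 (95% interval -0.35 to 0.25, adjusted p = 0.855). In bulk tissue, fewer cells of a type and less RNA per cell cannot be told apart, which holds for every difference given here.

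The difference between the drugs was tested directly. Eif4e was lower with MLN0128 than with everolimus by a log2 difference of -0.62 (SE 0.136, limma adjusted p = 0.0197), with no overlap of the 6 libraries. The call was lost without MLN0128 replicate 1 (adjusted p = 0.0687), and without everolimus replicate 3, where the difference was -0.46 (adjusted p = 0.0728). It was also lost with equal FPKM sums, where the difference shrank to -0.39 (adjusted p = 0.122), and in a fit of the 6 compared libraries alone (adjusted p = 0.0973). With MLN0128 replicate 3 alone, Eif4e stood at -0.61 against vehicle (adjusted p = 0.0784) and -0.56 against everolimus (adjusted p = 0.183). Over all alternatives, the stricter treat test included, the adjusted p of Eif4e ran from 0.00136 to 1 against vehicle and from 0.0148 to 1 against everolimus. In order of the mean, Eif4e ran from vehicle over everolimus and MLN0128 to normal liver. As deposited, the neighbours vehicle and everolimus, and MLN0128 and normal liver (log2 difference 0.22, limma adjusted p = 0.159), did not differ past the threshold. With plain library totals and with equal FPKM sums, Eif4e was called higher with MLN0128 than in normal liver.

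Eif4e2 (plus strand of chr1:87213914-87240488) encodes 4EHP, a cap-binding homolog that does not bind eIF4G and acts in repression of translation. Its FPKM was 11.2, 11.8 and 9.72 in NL, 15.9, 17.4 and 17.0 in vehicle tumors, 13.6, 13.8 and 12.7 with MLN0128, and 20.3, 15.2 and 17.2 with everolimus. The MLN0128 libraries fell between the normal livers and the vehicle libraries without touching either. Eif4e2 rose in vehicle against normal liver by 0.58 (SE 0.118, limma adjusted p = 0.00091), whereas MLN0128 against vehicle gave -0.31 (95% interval -0.56 to -0.05, adjusted p = 0.0664) and everolimus against vehicle 0.06 (-0.20 to 0.31, adjusted p = 0.813). MLN0128 against everolimus gave -0.36 (adjusted p = 0.0745). Without everolimus replicate 2, both MLN0128 comparisons of Eif4e2 passed the threshold (adjusted p = 0.0463 against vehicle, and a difference of -0.46 with adjusted p = 0.0362 against everolimus), whereas the adjusted p reached 1 in each comparison over all alternatives.

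Eif4e3 (minus strand of chr6:99625135-99666771) encodes another cap-binding family member and was the least abundant of the 10 genes in most libraries. Its FPKM was 1.59, 1.08 and 1.79 in NL, 4.12, 2.30 and 5.26 in vehicle tumors, 0.714, 0.933 and 1.53 with MLN0128, and 0.674, 1.73 and 0.511 with everolimus. The vehicle libraries were above all 9 others, and the other groups overlapped each other. Eif4e3 rose by 0.94 in vehicle against normal liver (SE 0.268, limma adjusted p = 0.0082), and fell by 1.22 with MLN0128 (adjusted p = 0.00563) and by 1.31 with everolimus (adjusted p = 0.0118). MLN0128 and everolimus differed by 0.09 (95% interval -0.49 to 0.68, adjusted p = 0.868). The everolimus call was lost without vehicle replicate 3 (log2 difference -1.11, adjusted p = 0.0573), without everolimus replicate 1 (-1.22, adjusted p = 0.0562) and in a fit of the 6 libraries alone (adjusted p = 0.0512), and the MLN0128 call with MLN0128 replicate 3 alone (-0.90, adjusted p = 0.153). Over all alternatives the adjusted p of Eif4e3 ran from 0.00273 to 0.315 with MLN0128 and from 0.00498 to 0.548 with everolimus.

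The summed FPKM of 4 biliary and progenitor markers (Krt19, Krt7, Epcam and Sox9, of which 3 passed the filter) was, like Eif4e3, highest in vehicle tumors. The sum was 35.7, 17.0 and 52.5 in vehicle tumors, against 1.496 to 2.01 in NL, 0.743 to 3.55 with MLN0128 and 0.937 to 4.28 with everolimus. Krt19 alone made up most of the sum in vehicle tumors, at 29.6, 9.49 and 44 FPKM. Within the vehicle group the sum, Krt19 and Sox9 (1.9, 1.74 and 3.85) had the order of Eif4e3 over the libraries. Epcam (3.96, 5.23 and 4.17) and Krt7 (0.258, 0.511 and 0.438) did not, and were highest in replicate 2, where Eif4e3 was lowest. In NL the order of the sum was the reverse of that of Eif4e3, and in the MLN0128 and everolimus groups it differed from it. The 3 tested markers were all called higher in vehicle than in NL, where 36% of all genes were. All were called lower with each drug, where 17.1% (MLN0128) and 6.05% (everolimus) of all genes were. The part of such cells in the Eif4e3 values was not tested. Of the exon bases of Eif4e3, 14.8% are shared on the same strand with the gene model Gm20696, so that its level is uncertain to that extent.

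Eif4g1, the main scaffold (plus strand of chr16:20668313-20692884), and Eif4g3, which makes its paralog eIF4GII (plus strand of chr4:137993022-138208508), encode proteins with the binding sites for eIF4E, eIF4A and the poly(A)-binding protein. Eif4g1 measured 87.9, 93.3 and 72.3 FPKM in NL, 92.7, 107 and 106 in vehicle tumors, 105, 92.2 and 88.4 in MLN0128 tumors, and 115, 108 and 114 with everolimus. The highest normal liver and the lowest vehicle library overlapped, and only the everolimus libraries stood above all others. The log2 differences of Eif4g1 were 0.27 in vehicle against normal liver (95% interval -0.01 to 0.55, limma adjusted p = 0.0758), -0.10 in MLN0128 against vehicle (-0.38 to 0.18) and 0.14 in everolimus against vehicle (-0.14 to 0.42), none past the threshold, and the MLN0128 difference became 0.05 with plain library totals and 0.14 with equal FPKM sums. The first depended on the scaling, since Eif4g1 was called higher in vehicle tumors with plain library totals (1.20, adjusted p = 4.59e-06) and with equal FPKM sums (1.47, adjusted p = 2.76e-06), where the medians of all genes were 0.62 and 1.00. Without normal liver replicate 2 it became 0.35 (adjusted p = 0.0465), without normal liver replicate 3 it became 0.17 (adjusted p = 0.271), and against normal liver the everolimus group was higher by 0.41 (adjusted p = 0.0119).

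Eif4g3 measured 5.79, 5.52 and 4.92 FPKM in NL and 11, 17.2 and 12.1 in vehicle tumors. With MLN0128 it measured 13.1, 10.6 and 10.6 and with everolimus 13.1, 12.7 and 13. All 9 tumor libraries were above all normal livers, and the 3 tumor groups overlapped. Eif4g3 rose by 1.15 in vehicle against normal liver (SE 0.149, limma adjusted p = 3.12e-05). The drug groups differed from vehicle by -0.20 (MLN0128, 95% interval -0.52 to 0.13) and -0.03 (everolimus, -0.35 to 0.30), and the first became 0.03 with equal FPKM sums. Within a library, which takes out the scaling between libraries, Eif4g3 made up 5.59% to 6.37% of the eIF4G FPKM in NL and 10.2% to 13.9% in the tumors, and the ratio of Eif4g1 to Eif4g3 was 14.7 to 16.9 in NL and 6.22 to 8.78 in the tumors.

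Eif4a1 (minus strand of chr11:69666936-69672423) and Eif4a2 (plus strand of chr16:23107444-23114136) encode near-identical RNA helicases, either of which can serve in eIF4F. Eif4a1, the most abundant member, measured 138, 148 and 144 FPKM in NL, 252, 254 and 231 in vehicle tumors, 218, 231 and 244 with MLN0128, and 247, 204 and 251 with everolimus. It rose by 0.77 in vehicle against normal liver (SE 0.125, limma adjusted p = 0.00017), with all tumors above all normal livers. Against vehicle it differed by -0.09 with MLN0128 (95% interval -0.36 to 0.18) and -0.07 with everolimus (-0.35 to 0.20). The MLN0128 difference of Eif4a1 turned positive, to 0.06 and 0.15, with plain library totals and with equal FPKM sums.

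Eif4a2 went the opposite way from Eif4a1. It measured 89.7, 100 and 120 FPKM in NL, 45.8, 44.5 and 32.4 in vehicle tumors, 77.0, 76.6 and 57.4 with MLN0128, and 57.1, 51.2 and 56.4 with everolimus. All normal livers were above all tumors, and all vehicle libraries were below all drug-treated ones. Eif4a2 fell by 1.32 in vehicle against normal liver (SE 0.169, limma adjusted p = 2.69e-05), a difference that shrank to -0.40 with plain library totals and to -0.14, not called (adjusted p = 0.391), with equal FPKM sums, the adjusted p being 1.82e-05 to 0.391 over all alternatives. Relative to the median of all genes it lay between -1.42 and -1.02 under the 3 scalings and voom. The MLN0128 and everolimus groups were likewise below normal liver as deposited (log2 differences -0.55 and -0.89, adjusted p = 0.0113 and 0.000526), and these differences changed sign, to 0.52 and 0.04, with plain library totals.

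Against vehicle, Eif4a2 rose by 0.77 with MLN0128 (SE 0.169, limma adjusted p = 0.00547), and everolimus gave 0.43 (95% interval 0.06 to 0.80, adjusted p = 0.127). The direct difference between the drugs was 0.34 (-0.03 to 0.71, adjusted p = 0.221), and each MLN0128 library was above every everolimus library, as in 12.5% of all genes. With equal FPKM sums it was 0.60 and called (adjusted p = 0.0285). With MLN0128 replicate 3 alone, which at 57.4 FPKM was the lowest of its group, the rise against vehicle was 0.50 and not called (adjusted p = 0.174, with a range of 0.00059 to 1 over all alternatives). The share of Eif4a2 in the summed eIF4A FPKM, which no scaling between libraries alters, was 39.4%, 40.3% and 45.5% in NL and 15.4%, 14.9% and 12.3% in vehicle tumors. It was 26.1%, 24.9% and 19.0% with MLN0128 and 18.8%, 20.1% and 18.4% with everolimus, so that both drug groups lay between vehicle and normal liver. Exons of Eif4a2 share 194 bases, 3.63% of its length, with Rfc4 on the other strand, and both helicase genes host small nucleolar RNAs.

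**Figure D2:**
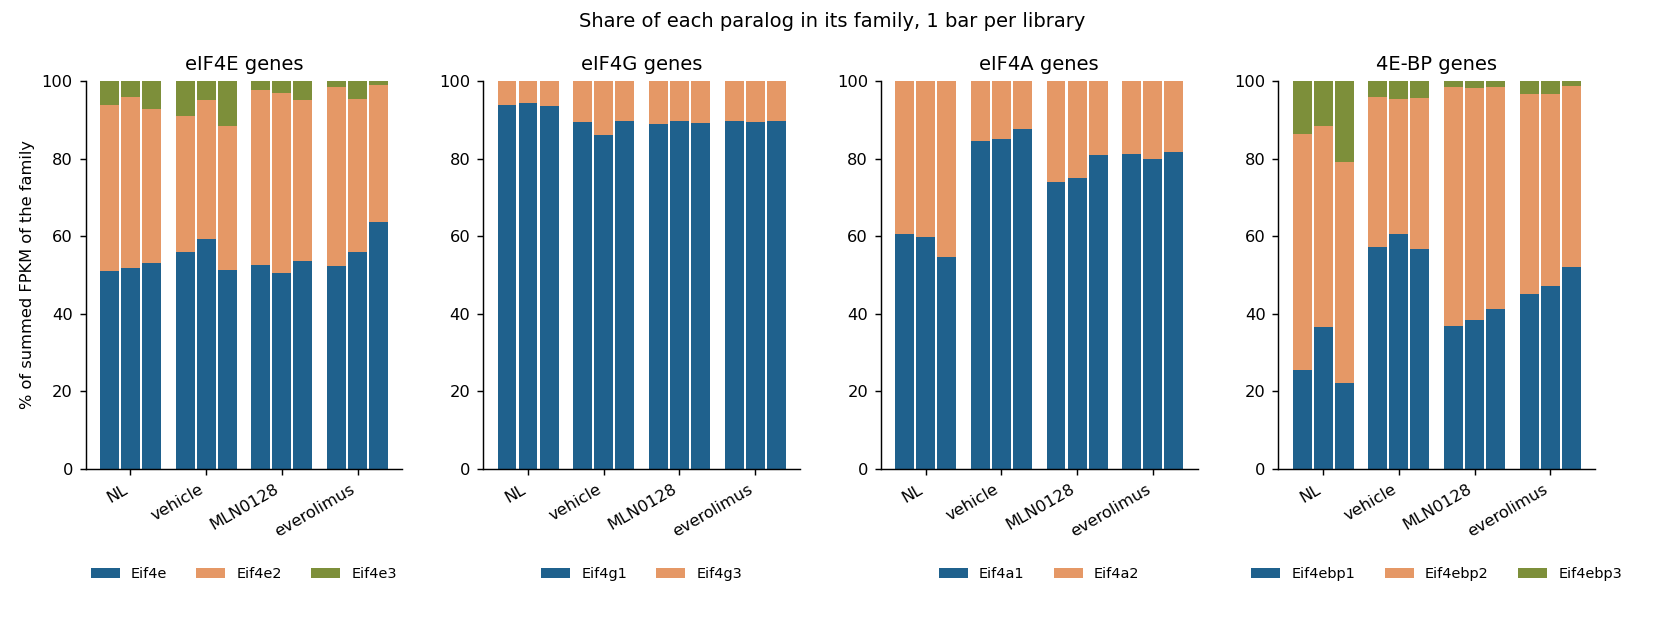
Share of each paralog in the summed FPKM of its family (vertical axes, 0 to 100%), with 1 bar per library in normal liver (NL), vehicle, MLN0128 and everolimus and a colour per gene. The Eif4a2 share falls from 39.4% to 45.5% in normal liver to 12.3% to 15.4% in vehicle tumors, and the Eif4ebp1 share of the 4E-BP genes is 22.1% to 36.7% in NL, 56.8% to 60.7% in vehicle tumors, 36.8% to 41.3% with MLN0128 and 45.0% to 52.1% with everolimus.

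Eif4ebp1 (ENSMUSG00000031490.6, plus strand of chr8:27260329-27276674 on GRCm38) encodes 4E-BP1, the best known 4E-BP and a gene that the stress-response factor ATF4 is known to activate. Its FPKM was 27.2, 46.0 and 20.8 in NL, 81.1, 90.4 and 87.0 in vehicle tumors, 33.8, 37.3 and 36.0 with MLN0128, and 65.6, 57.4 and 79.2 with everolimus. The vehicle libraries were above all others and the everolimus libraries came next. As deposited, the MLN0128 libraries lay within the range of the normal livers, which normal liver replicate 2 widened upward. Eif4ebp1 rose by 1.505 in vehicle against normal liver (SE 0.226, limma adjusted p = 9.94e-05) and fell by 1.25 with MLN0128 (SE 0.226, adjusted p = 0.00206). With everolimus the difference from vehicle was -0.36 (95% interval -0.86 to 0.13, adjusted p = 0.338). No library of the everolimus group reached the vehicle range, and 14.8% of all genes were separated downward in this way. The fall with MLN0128 was called under every alternative with more than 1 library a group but treat (adjusted p from 0.000386 to 0.161 over all), and the lone replicate 3 differed from vehicle by -1.23.

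Between the drugs, Eif4ebp1 was lower with MLN0128 than with everolimus by a log2 difference of -0.89 (SE 0.226, limma adjusted p = 0.0339), without overlap. That call rested on every library of both groups but everolimus replicate 2, since leaving out any of the other 5 raised the adjusted p to between 0.0528 (without MLN0128 replicate 3) and 0.140 (without everolimus replicate 3), with the difference between -0.92 and -0.77. The call was also lost with plain library totals (-0.75, adjusted p = 0.0503), with equal FPKM sums (-0.65, adjusted p = 0.0915) and with the 6 compared libraries alone (adjusted p = 0.0738), and over all alternatives the adjusted p ran from 0.012 to 1. Against normal liver, Eif4ebp1 with MLN0128 differed by 0.26 (95% interval -0.24 to 0.75, limma adjusted p = 0.322), and passed the threshold without normal liver replicate 2. Eif4ebp1 was also called higher there with plain library totals and with equal FPKM sums. With everolimus it remained higher than in normal liver by 1.14 (adjusted p = 0.000727). Relative to the median of all genes, vehicle exceeded normal liver by 1.45 to 1.78 and MLN0128 stood at -1.25 to -1.20 against vehicle under the 3 scalings and voom.

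Eif4ebp2 (ENSMUSG00000020091.15, minus strand of chr10:61428491-61452661 on GRCm38) encodes 4E-BP2, which is inhibited by mTORC1 in the same way. Its FPKM was 64.9, 64.8 and 53.7 in NL, 55.1, 51.7 and 59.7 in vehicle tumors, 56.7, 58.2 and 49.9 with MLN0128, and 75.3, 60.5 and 70.9 with everolimus. Normal liver, vehicle and MLN0128 overlapped, and the everolimus libraries were above all vehicle and all MLN0128 libraries. Of all genes, 17.6% were so separated from vehicle and 15.2% from MLN0128. None of these 4 comparisons was called as deposited. The log2 difference was -0.13 in vehicle against normal liver (95% interval -0.41 to 0.14, limma adjusted p = 0.361), and it reversed to a called rise of 0.78 (adjusted p = 5.01e-05) with plain library totals and of 1.05 (adjusted p = 8.49e-06) with equal FPKM sums, but was -0.21 to 0.16 relative to the median of all genes. It was -0.02 in MLN0128 against vehicle (-0.29 to 0.26), 0.30 in everolimus against vehicle (0.03 to 0.58, adjusted p = 0.149) and -0.32 between the drugs (-0.59 to -0.04, adjusted p = 0.131).

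Eif4ebp3 (ENSMUSG00000090264.1) encodes 4E-BP3, whose gene TFE3 is known to activate when mTORC1 is inhibited for long. Its FPKM was 14.6, 14.5 and 19.5 in NL, 5.77, 6.95 and 6.52 in vehicle tumors, 1.33, 1.64 and 1.35 with MLN0128, and 4.77, 4 and 1.83 with everolimus. The groups ran downward from normal liver over vehicle and everolimus to MLN0128 without overlap, everolimus replicate 3 lying nearest to the MLN0128 range. Eif4ebp3 fell by 1.20 in vehicle against normal liver (SE 0.223, limma adjusted p = 0.000481), and by a further 1.60 with MLN0128 against vehicle (SE 0.223, adjusted p = 0.00053). This last was the one drug call of the members that passed the test against a fold change of 1.5 (adjusted p = 0.0276), and the call was kept under every alternative with more than 1 library a group (adjusted p from 8.48e-05 to 0.0276). The lone replicate 3 differed from vehicle by -1.65.

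With everolimus, Eif4ebp3 differed from vehicle by -0.77 (95% interval -1.26 to -0.28), just outside the threshold (limma adjusted p = 0.0512), and it passed without everolimus replicate 1 (-0.98, adjusted p = 0.0383) or replicate 2 (-0.87, adjusted p = 0.0492). Without everolimus replicate 3, the lowest of its group, the difference shrank to -0.46 (adjusted p = 0.105), and over all alternatives the adjusted p ran from 0.0383 to 1. MLN0128 was lower than everolimus by -0.83 (SE 0.223, adjusted p = 0.0398). That call was lost without any of 9 single libraries, 2 of them normal livers and 2 of them vehicle tumors (adjusted p from 0.0521 to 0.126), by voom on recovered reads (-1.17, adjusted p = 0.0701), under both other scalings (-0.78 and -0.83, adjusted p = 0.0503 and 0.0804) and with the 6 compared libraries alone (adjusted p = 0.139), with a range of 0.0122 to 1 over all alternatives. The fall in tumors depended on the scaling, with -0.35 (adjusted p = 0.183) for plain library totals and -0.12 (adjusted p = 0.703) for equal FPKM sums (2.06e-05 to 0.703 over all alternatives), and was -1.40 to -0.97 relative to the median of all genes. Of the 744 exon bases of Eif4ebp3, 67.3% belong also to a same-strand model, AC115631.1, which was not among the genes of the deposited values. Ankhd1, the gene just upstream, went the other way, with 5.20 to 6.64 FPKM in vehicle tumors and 9.49 to 12.2 with MLN0128.

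As a family, the 4E-BP genes differed between groups in make-up. Their summed FPKM as deposited was 94.0 to 125 in NL, 142 to 153 in vehicle tumors, 87.3 to 97.1 with MLN0128 and 122 to 152 with everolimus. Unlike the shares below, these sums depend on the scaling. With plain library totals and with equal FPKM sums, Eif4ebp1 and Eif4ebp2 were called higher with MLN0128 than in NL, and Eif4ebp3 lower. Eif4ebp2 led in every normal liver with 51.7% to 60.8% of the sum, Eif4ebp1 led in every vehicle tumor with 56.8% to 60.7%, and Eif4ebp2 led again in every MLN0128 tumor with 57.2% to 61.7%. In the everolimus tumors Eif4ebp2 led in replicates 1 and 2 and Eif4ebp1 in replicate 3. Eif4ebp3 made up 11.6% to 20.7% in NL, 4.06% to 4.66% in vehicle tumors, 1.45% to 1.69% with MLN0128 and 1.20% to 3.28% with everolimus.

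Ratios within a library, which do not depend on the scaling, are given as a description without a test. The ratio of Eif4ebp1 to Eif4e was 2.05, 3.31 and 1.60 in NL, 3.18, 3.16 and 3.72 in vehicle tumors, 2.13, 2.49 and 2.18 with MLN0128, and 2.86, 2.68 and 2.54 with everolimus. The 3 tumor groups did not overlap, and the normal livers ran from below the MLN0128 range into the vehicle range. The ratio of Eif4ebp2 to Eif4e was 4.13 to 4.88 in NL, 1.81 to 2.55 in vehicle tumors, 3.02 to 3.88 in MLN0128 tumors and 2.27 to 3.29 in everolimus tumors. The ratio of all 4E-BP FPKM to Eif4e was 7.23 to 9.01 in NL and 4.87 to 6.55 in the tumors, where vehicle (5.21 to 6.55), MLN0128 (5.29 to 6.48) and everolimus (4.87 to 6.36) overlapped.

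**Figure D3:**
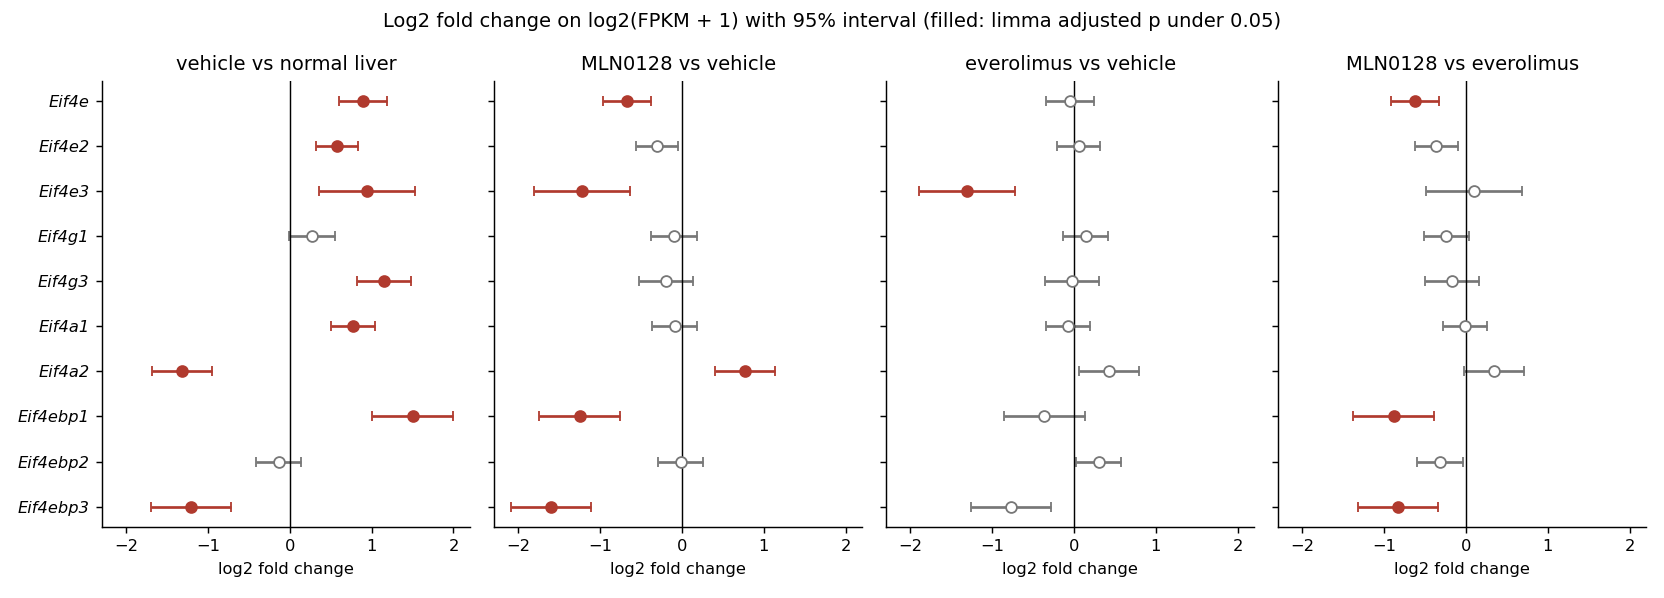
Log2 fold change of each member (horizontal axes) in 4 comparisons, with 95% intervals from limma and filled red points for adjusted p under 0.05. In tumor against liver 8 members are called and in MLN0128 against vehicle 5, while in everolimus against vehicle only Eif4e3 (-1.31) is called and the intervals of Eif4e (-0.35 to 0.25) and Eif4ebp1 (-0.86 to 0.13) include 0.

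**Figure D4:**
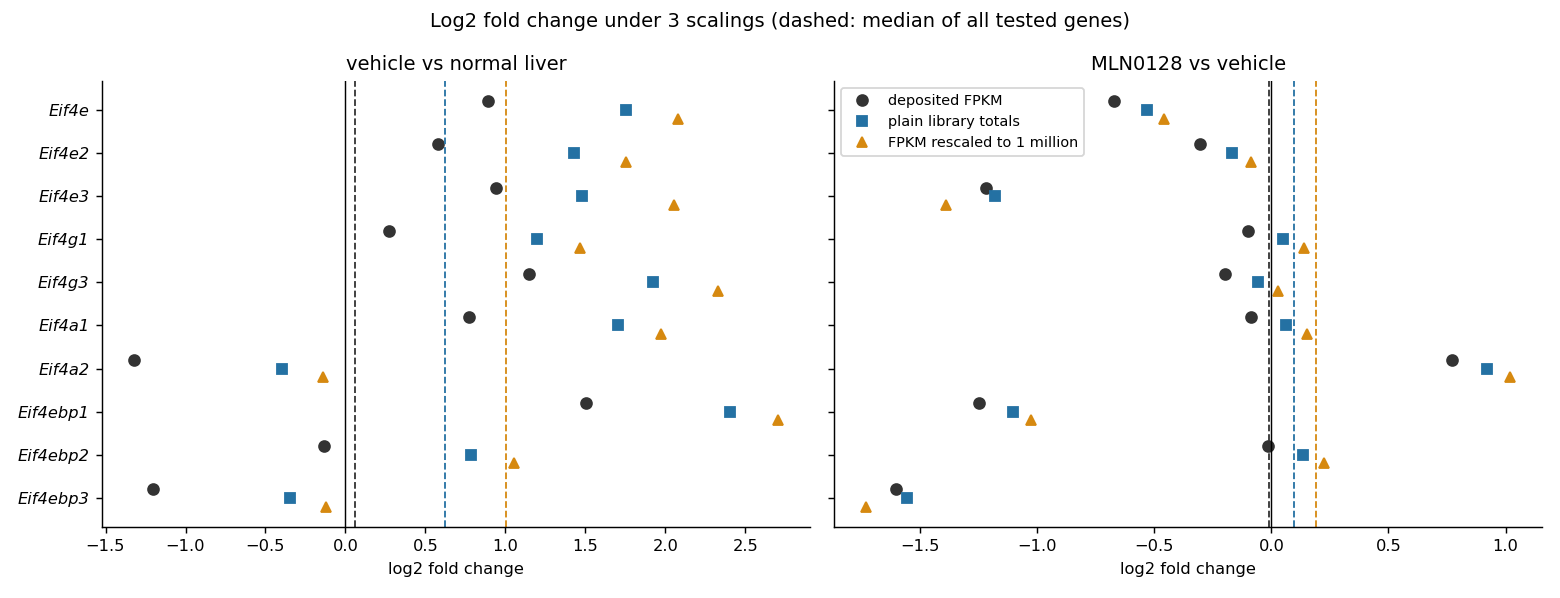
Log2 fold change of each member (horizontal axes) in vehicle against normal liver and MLN0128 against vehicle, as deposited (circles), with plain library totals (squares) and rescaled to equal FPKM sums (triangles), with dashed lines for the median of all tested genes under each. In tumor against liver the medians lie at 0.06, 0.62 and 1.00 and all members shift with them, so that Eif4ebp2 goes from -0.13 to 0.78 and 1.05, whereas in MLN0128 against vehicle the medians lie at -0.01, 0.10 and 0.19.

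Against normal liver the drug groups share their control, so each is given for itself. With everolimus 6 members were called higher and 2 lower, where 35.9% and 34.3% of all genes were, and with MLN0128 2 were called higher (Eif4a1 by 0.68 and Eif4g3 by 0.95) and 2 lower, where 37.1% and 35.5% of all genes were. The 2 lower ones were Eif4a2 and Eif4ebp3 in both groups, Eif4ebp3 by -2.81 with MLN0128 (limma adjusted p = 5.77e-07) and -1.97 with everolimus (adjusted p = 9.21e-06). Without normal liver replicate 2, the count called higher with MLN0128 was 4, with Eif4e2 and Eif4ebp1 added. With plain library totals or equal FPKM sums it was 8, and Eif4e, Eif4ebp1, Eif4a2 and Eif4ebp2 were among those called higher, so these counts depend on the scaling.

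The tissues carried the markers of their labels in part. The 6 hepatocyte markers summed to 81041 to 101068 FPKM in NL and 1756 to 7839 in the tumors, macrophage and Kupffer cell markers to 132 to 149 and 15.4 to 65.4, endothelial markers to 46.9 to 54.6 and 8.97 to 15.1, and proliferation markers to 1.22 to 4.55 and 34.2 to 110. Stellate and fibroblast markers summed to 55.6 to 78.8 and 17.7 to 41.7, neutrophil markers to 2.30 to 16.1 (highest in normal liver replicate 2) and 0.270 to 7.08, and T and NK cell and B cell markers to at most 1.78 in any library. These sums, and the marker calls below, are as deposited and were not repeated under the other scalings. Both other scalings raise tumors relative to NL, which narrows the gap where a sum was lower in tumors, as for stellate and fibroblast markers. Within the sums single markers went in opposite directions, where 36% of all genes were called higher and 33% lower in vehicle tumors than in NL. Of 6 macrophage markers 5 were lower in vehicle tumors than in NL, while Cd68 rose from 4.8 to 5.75 FPKM in NL to 24.6 to 36.8 in vehicle tumors and measured 5.37 to 12.4 with MLN0128 and 6.82 to 12.8 with everolimus, and the macrophage sum was 37.8 to 60.3, 15.4 to 25.0 and 21.3 to 65.4 in these groups. Of 5 stellate and fibroblast markers 3 were lower in vehicle tumors than in NL, but the collagen genes Col1a1 and Col1a2 were higher, Col1a1 at 0.480 to 1.35 FPKM in NL and 8.82 to 20.2 in vehicle tumors. These 3 genes were singled out after their values were seen. The part of these cells in the differences between groups was not tested. Rictor was at 1.65 to 2.57 FPKM in NL and 1.05 to 2.21 in tumors, and Tsc2 at 4.50 to 5.32 and 2.01 to 3.96, and whole-gene values do not single out the deleted exons.

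Genes around eIF4F were described from a list of 22 partners and regulators, of which 21 were tested. In vehicle against normal liver 12 were higher and 3 lower, where 36% and 33% of all genes were. The median log2 fold change was 0.41 where the median of all genes was 0.06. With MLN0128 against vehicle 8 were lower and 1 higher, where 17.1% and 14.9% of all genes were. The median was -0.13 and became 0.01 with plain library totals and 0.10 with equal FPKM sums. The one that rose was Eif4b, which stimulates the eIF4A helicase, by 0.69 (SE 0.155, limma adjusted p = 0.00617), from 127 to 144 FPKM in vehicle tumors to 189 to 238 with MLN0128. Among those that fell were Mknk2, a kinase that phosphorylates eIF4E on the eIF4G scaffold (-1.18, adjusted p = 0.00113), Ppm1g, a phosphatase of 4E-BP1 (-0.82, adjusted p = 0.0021), and Klhl25, an adaptor that targets free 4E-BP1 for degradation (-0.69, adjusted p = 0.00967). Eif4h, a relative of eIF4B, and Eif4g2, an eIF4G homolog that lacks the eIF4E site, also fell (-0.44 and -0.49, adjusted p = 0.00927 and 0.0145).

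With everolimus against vehicle the list gave 1 gene lower, Mknk2 again (-0.95, limma adjusted p = 0.0112), and 1 higher, Ncbp2, a subunit of the nuclear cap-binding complex (0.54, adjusted p = 0.0269). Of all genes 6.05% were called lower and 3.78% higher there. Between the drugs 4 were lower with MLN0128, where 5.54% of all genes were. They were Ncbp2 (-0.67, adjusted p = 0.0137), Klhl25 (-0.80, adjusted p = 0.0177), Ppm1g (-0.70, adjusted p = 0.0185) and Eif4enif1, a shuttling protein that carries eIF4E into the nucleus (-0.45, adjusted p = 0.0275). None of these partner calls passed the test against a fold change of 1.5.

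Because Eif4ebp1 is a known target of ATF4, 10 other ATF4 targets were read beside it. Their summed FPKM was 240, 480 and 144 in NL, 1074, 1054 and 971 in vehicle tumors, 351, 375 and 404 with MLN0128, and 911, 703 and 1055 with everolimus. Normal liver replicate 2, the highest of its group for Eif4ebp1, was also the highest here. As deposited, the MLN0128 sums lay within the normal range, but such sums depend on the scaling. The median log2 difference of the 10 in MLN0128 against normal liver was 0.85 as deposited, 1.35 with plain library totals and 1.835 with equal FPKM sums. The medians of all genes were 0.05, 0.72 and 1.21. The make-up of the sums also differed. With MLN0128 against normal liver 5 of the 10 were called higher and 3 lower as deposited, where 37.1% and 35.5% of all genes were. Among them were Phgdh of serine synthesis (higher by 6.22, limma adjusted p = 3.32e-07) and the factor gene Atf5 (-2.48, adjusted p = 0.000119), which made up 191, 385 and 93 FPKM of the NL sums. Phgdh and Atf5 were singled out after their values were seen. In vehicle against normal liver 9 of the 10 were higher (median 2.80), where 36% of all genes were. With MLN0128 against vehicle 7 were lower (median -2.07), where 17.1% of all genes were. With MLN0128 the glutathione-degrading Chac1 fell by 4.23 (limma adjusted p = 1.99e-06), the pseudokinase gene Trib3 by 3.58 (adjusted p = 0.000135) and the cystine transporter gene Slc7a11 by 3.33 (adjusted p = 9.81e-06). With everolimus 2 were lower (median of the 10 -0.60), where 6.05% of all genes were. They were Slc7a11 (-2.86, limma adjusted p = 3.84e-05) and Ddit3, the stress-induced factor CHOP (-1.11, adjusted p = 0.00585). Between the drugs 4 of the 10 were lower with MLN0128 (median -1.08), where 5.54% of all genes were. The part of ATF4 in the Eif4ebp1 values was not tested.

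For Eif4ebp3, 7 targets of TFE3 and TFEB were read in the same way. In vehicle against normal liver 4 were higher and 1 lower, where 36% and 33% of all genes were, whereas Eif4ebp3 was called lower as deposited. With plain library totals and with equal FPKM sums all 7 lay above 0, and the Eif4ebp3 differences of -0.35 and -0.12 were not called. With MLN0128 against vehicle 5 were lower, with a median of -0.82, where 17.1% of all genes were called lower. With everolimus 3 were lower, with a median of -0.41, where 6.05% of all genes were called lower. Gpnmb, a lysosomal glycoprotein gene, fell by 1.63 with MLN0128 (limma adjusted p = 0.0012) and by 2.11 with everolimus (adjusted p = 0.000898), and the autophagy receptor gene Sqstm1 by 1.43 (adjusted p = 0.000942) and 1.42 (adjusted p = 0.00343). Between the drugs 1 of the 7 was called, where 5.54% of all genes were called lower and 3.99% higher. It was the mTORC1 pathway GTPase gene Rragd, which was lower with MLN0128 (-0.66, limma adjusted p = 0.0119). The median of the 7 was -0.01, with 3 above and 4 below 0. The part of TFE3 and TFEB in the Eif4ebp3 values was not tested.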

How the data were processed

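The authors deposited FPKM for 12 libraries, which had been made and sequenced at Novogene, counted per Ensembl gene, converted to Entrez identifiers and named with org.Mm.eg.db. The submitters' processing notes name FastQC 0.11.7 and GRCm38, and the aligner is not given in the sources used here. The authors tested with edgeR glmTreat. Because FPKM are not counts, log2(FPKM + 1) was fitted here with limma 3.58.1 in R 4.3.3, with a mean per group, 8 residual degrees of freedom and an intensity trend, over the 14397 genes that reached 0.5 FPKM in 3 or more libraries. A gene was called at a Benjamini-Hochberg adjusted p under 0.05, and limma treat at a fold change of 1.5 was the stricter test. The fit was tested on simulated data. The labels number the samples of a group without saying that each is a separate mouse, so p-values measure the spread between these samples.

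All members are named, with partners past the test in a drug comparison (at most 6 by adjusted p), at most 4 genes each of the ATF4 and TFE3/TFEB targets, and the 3 genes most like each 4E-BP gene. The ATF4 targets Phgdh and Atf5 were named beyond this rule, after their values were seen. The members, although defined by symbol alone, and the lists were chosen with earlier results of these data known. Exon lengths and positions came from GENCODE M21, in which 16890 of 17007 symbols were found. FPKM times length fell within 0.1 of a whole read for 98.2% to 98.8% of values under 20 reads, where chance gives 20%. Intervals of fold changes come from the limma fit, so they measure the spread between libraries. Alternatives were a pseudocount of 0.1, no filter, 2 other scalings, voom, treat, the 6 compared libraries alone, no trend, a replicate block, each library left out and MLN0128 replicate 3 alone. The software also included pandas 2.3.3 and, for plots, matplotlib 3.10.9.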

Additional observations from a re-analysis of the deposited data

How the results depend on the processing

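Of 860 alternative values of the members in the 4 comparisons other than drug against normal liver, 774 kept direction and side of the threshold, 51 lost a call, 8 gained one and 27 changed sign. Treat left 2 of 6 members higher in vehicle against normal liver, 0 higher and 1 lower in MLN0128 against vehicle, 0 lower in everolimus against vehicle, 0 lower between the drugs, and 1 higher and 1 lower (MLN0128) and 2 higher and 1 lower (everolimus) against normal liver. With equal FPKM sums, 0 members were lower in vehicle against normal liver, 1 was higher (Eif4a2) and 0 lower between the drugs, and 8 were higher and 1 lower (MLN0128) and 1 lower (everolimus) against normal liver. With plain library totals these were 1 lower, 1 lower (Eif4e), 8 higher and 1 lower, and 1 lower. Under both of these scalings Eif4g1 and Eif4ebp2 were called higher in vehicle against normal liver, beside the 6 called as deposited. The 6 compared libraries alone gave 0 lower in everolimus against vehicle and between the drugs. MLN0128 replicate 3 alone gave 0 higher and 2 lower against vehicle and 0 lower against everolimus. Among these 4 comparisons, differences that changed sign were under 0.35 in size as deposited. With equal FPKM sums they were 1.05 (Eif4ebp2, vehicle against normal liver), then 0.14 (Eif4g1), 0.0271 (Eif4g3), 0.15 (Eif4a1) and 0.22 (Eif4ebp2) in MLN0128 against vehicle and 0.0107 (Eif4g1), 0.0664 (Eif4g3) and 0.24 (Eif4a1) between the drugs. With plain library totals they were 0.78 (Eif4ebp2, vehicle against normal liver), 0.0513 (Eif4g1), 0.0615 (Eif4a1), 0.13 (Eif4ebp2) and, between the drugs, 0.13 (Eif4a1), and 0.0663 (Eif4a1) there with replicate 3 alone. The scalings differ by construction in the size given to each library, and the cause of the other changes was not tested.

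Leaving out each library in turn gave 6 to 7 members higher and 2 to 2 lower in vehicle against normal liver, 1 to 1 and 4 to 5 in MLN0128 against vehicle, 0 to 0 and 0 to 2 in everolimus against vehicle (0 without vehicle replicate 3, 2 without everolimus replicate 2), 0 to 0 and 0 to 3 between the drugs (0 without MLN0128 replicate 1, and 1 without MLN0128 replicate 2 or 3 or everolimus replicate 1 or 3), 2 to 4 and 2 to 2 in MLN0128 against normal liver, and 5 to 6 and 2 to 3 in everolimus against normal liver. Left-out fits that changed the sign of a difference, none of them called, spanned -0.0642 to 0.0513 for Eif4ebp2 in MLN0128 against vehicle, -0.209 to 0.0525 for Eif4e, -0.0483 to 0.149 for Eif4e2, -0.148 to 0.152 for Eif4g3 and -0.128 to 0.0206 for Eif4a1 in everolimus against vehicle, and -0.0737 to 0.353 for Eif4e3 and -0.109 to 0.0396 for Eif4a1 between the drugs. The replicate numbers gave no sign of pairing the samples. Same-numbered deviations correlated at -0.289 to 0.148 over 18 pairs of libraries, 1 of them over 0.1. Those with different numbers correlated at -0.287 to 0.396 over 36 pairs, 8 of them over 0.1. Deviations from the mean of so few libraries constrain each other, so these values cannot exclude a pairing. A replicate block left 1 member (Eif4e) lower between the drugs and moved no other count past 1.5 times. Eif4ebp3 and Eif4e3, with 24 to 309 reads, are the members whose depth limits them most.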

Other observations

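Over the 9 tumor libraries, the genes whose log2 values followed each 4E-BP gene most closely were given by Pearson's r, as a description over libraries that share a treatment group. For Eif4ebp1 they were Arpc5l (r = 0.994), a subunit of the actin-nucleating Arp2/3 complex, Ywhab (0.994), a 14-3-3 protein gene, and Akirin1 (0.993). Arpc5l measured 10.4, 10.6 and 10.4 FPKM in vehicle tumors, 5.15, 5.54 and 5.60 with MLN0128, and 7.94, 7.50 and 9.90 with everolimus, with everolimus between the other groups as for Eif4ebp1. In NL, which the choice did not use, Arpc5l was at 11 to 12.8 FPKM, as high as in vehicle tumors, where Eif4ebp1 was low.

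For Eif4ebp2 the nearest genes were Jcad (0.975), a junctional protein gene, Mapk14 (0.952), which encodes the stress kinase p38 alpha, and Tln2 (0.942). Jcad measured 5.04 to 5.64 FPKM in vehicle tumors, 4.17 to 6.07 with MLN0128 and 6.37 to 9.05 with everolimus. For Eif4ebp3 they were Riok3 (0.972), Zfp385a (0.972) and Id1 (0.961), an inhibitor of helix-loop-helix factors. Riok3 measured 32.9 to 37.8 FPKM in vehicle tumors, 23.5 to 24.5 with MLN0128 and 24.1 to 34.0 with everolimus. Among the members themselves, Eif4ebp1 followed Eif4e (0.933) and Eif4ebp3 (0.831) and ran opposite to Eif4a2 (-0.806) over the same 9 libraries, and was at 0.268 with Eif4ebp2.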
